A study of Mus musculus with 4 samples.

Results

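The pre-B cell receptor and the B cell receptor were followed through 8 genes in mouse LSK cells, which are sorted as Lin- Sca-1+ c-Kit+ and include blood stem cells together with their early multipotent progeny. The genes were chosen by name (Cd79a, Cd79b, Vpreb1, Vpreb2, Vpreb3, Igll1, Blnk and Ms4a1), and all 8 were found among the 46517 genes listed. Expression was measured by mRNA sequencing in C57BL/6 mice aged 8 to 10 weeks, with 2 libraries of Setd2D/D cells (Setd2 knocked out) and 2 libraries of Setd2f/f cells, which the labels call wild-type for Setd2. Setd2 trimethylates histone H3 at lysine 36 along transcribed genes. The sources used here do not give the driver or timing of the deletion, the exons removed, or the number of mice per library. Whether the replicates are separate mice is not stated either, so a p-value here reflects no more than library-to-library spread, some of which may be technical.

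In developing B cells the first receptor to reach the surface is the pre-B cell receptor. It joins a newly rearranged heavy chain to a surrogate light chain, which is built from a VpreB protein and the Igll1 product before any true light chain exists. Cd79a and Cd79b are the signalling chains of both receptors, and Blnk is the adaptor that ties the kinase Syk to Btk and phospholipase C-gamma. Genes of this set are known targets of the early B lineage factors Ebf1 and E2A, and low levels of some can already be found in lymphoid-primed progenitors.

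The surrogate light chain genes lie together on chromosome 16 (GRCm38). Igll1 (ENSMUSG00000075370, 16860671 to 16863985) and Vpreb1 (ENSMUSG00000059305, 16868403 to 16870843) are neighbours on the minus strand with 4418 bases between them, and Vpreb2 (ENSMUSG00000059280, 17980428 to 17981273) is on the plus strand 1109585 bases further on. Vpreb1 and Vpreb2 are near-identical copies. Their protein-coding transcripts have 739 identical bases of 759 aligned (97.4%), and 32.5% of the 50-base windows of the Vpreb1 transcript occur letter for letter in Vpreb2. A stretch before the RefSeq starts is shared as well, though its length here is set by the edges of the promoter windows compared. The pair of 106-base stretches below is shown because these near copies differ in their values between the genotypes. The first ends at the last base before the RefSeq start of Vpreb1 (chr16:16869256-16869361, minus strand). The second begins 250 bases before the RefSeq start of Vpreb2 (chr16:17980315-17980420, plus strand), so the stretches sit at different distances from the starts. They come from RefSeq promoter windows of GRCm38.p6, whose starts differ from those of the GENCODE spans given here, so that the Vpreb1 stretch lies inside the GENCODE span of its gene, and capitals mark the 2 bases that differ, G12T and C104T, counted from the 5′ end with the Vpreb1 base first.
Vpreb1: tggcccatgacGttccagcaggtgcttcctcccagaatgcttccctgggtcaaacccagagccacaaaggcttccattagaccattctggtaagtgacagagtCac
Vpreb2: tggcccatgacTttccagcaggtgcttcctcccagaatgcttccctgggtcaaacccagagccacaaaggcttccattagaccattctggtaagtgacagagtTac

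Promoter windows of 250 bases before to 50 bases after the start were at hand for 6 of the 8 genes (not for Cd79b and Ms4a1), and 3 motifs were searched in them on both strands. The octamer ATGCAAAT, bound by Oct proteins with the B cell coactivator Pou2af1, was found in Vpreb3 and Blnk, against 1.74% of all 32851 windows of the same length. The E-box form CAGGTG, which E2A proteins bind, was found in 5 of the 6 (all but Vpreb3), against 20.2% of all windows. The Vpreb1 and Vpreb2 matches are the same letters of the shared stretch, so these 2 of the 5 are 1 duplicated site. CCCNNGGG, the core letters of Ebf1 sites, was found in Igll1 alone, against 13.7%. No match overlapped a match of another motif. A match is a string of letters and shows neither binding nor a cause. The octamer stretches of Vpreb3 (chr10:75948245-75948272, plus strand) and Blnk (chr19:40994334-40994361, minus strand) are shown because the same 8 letters sit in both, in capitals, on the reverse strand of the motif; both stretches lie inside the GENCODE spans of their genes. The Cd79a stretch (chr7:24897313-24897378, plus strand) carries the E-box in capitals.
Vpreb3: cagtgggctgATTTGCATgctctattgt
Blnk: actggaagggATTTGCATgcccaataag
Cd79a: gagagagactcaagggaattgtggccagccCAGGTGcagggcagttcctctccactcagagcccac

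Levels are given in TPM, a gene's length-corrected share of the transcripts of its library on a scale with the same total in each, so that genes can be compared with each other. Between 14360 and 14610 genes reached 1 TPM in a library. Setd2D/D replicate 1 listed 29332 genes at 0, against 26325 to 27069 in the other 3 libraries, and the number of reads is not given. Setd2 itself was at 43.4 and 49.5 TPM in Setd2D/D and at 78.9 and 68.0 TPM in Setd2f/f, and transcripts that lack only the deleted exons would still be counted. Of the genes that define the sort, Kit was at 301 and 285 TPM in Setd2D/D and 224 and 249 TPM in Setd2f/f, and Ly6a (Sca-1) at 46.5 and 80.6 TPM in Setd2D/D and 127.5 and 124 TPM in Setd2f/f.

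Most receptor components had lower levels in Setd2D/D than in Setd2f/f LSK cells, but replicates of a genotype lay far apart for most of them. In 5 of the 8 genes (Cd79a, Cd79b, Vpreb1, Vpreb3 and Blnk) both Setd2D/D libraries lay below both Setd2f/f libraries, as did 27.6% of the 14755 genes tested; in 0 of the 8 did both lie above, as in 16.8% of those genes. For Vpreb2, Igll1 and Ms4a1 the genotypes overlapped. In limma fitted to log2(TPM + 1) of all tested genes, 0 of the 8 passed an adjusted p of 0.05, where 0.0678% of all genes passed in either direction and 0.0474% as lower, and 4 of the 8 (Vpreb1, Blnk, Cd79a and Cd79b) had an unadjusted p under 0.05 and were lower, against 6.99% of all genes. The authors' deposited table, from edgeR, lists 6 of the 8 as lower at an FDR under 0.05, against 1.64% of its 23955 genes lower and 3.15% passing in either direction, and 0 of the 8 as higher. The median limma log2 change of the 8 genes was -0.93, beside -0.06 for all genes tested. In bulk libraries, fewer cells that carry these transcripts and less of them in each cell cannot be told apart.

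**Figure D1:**
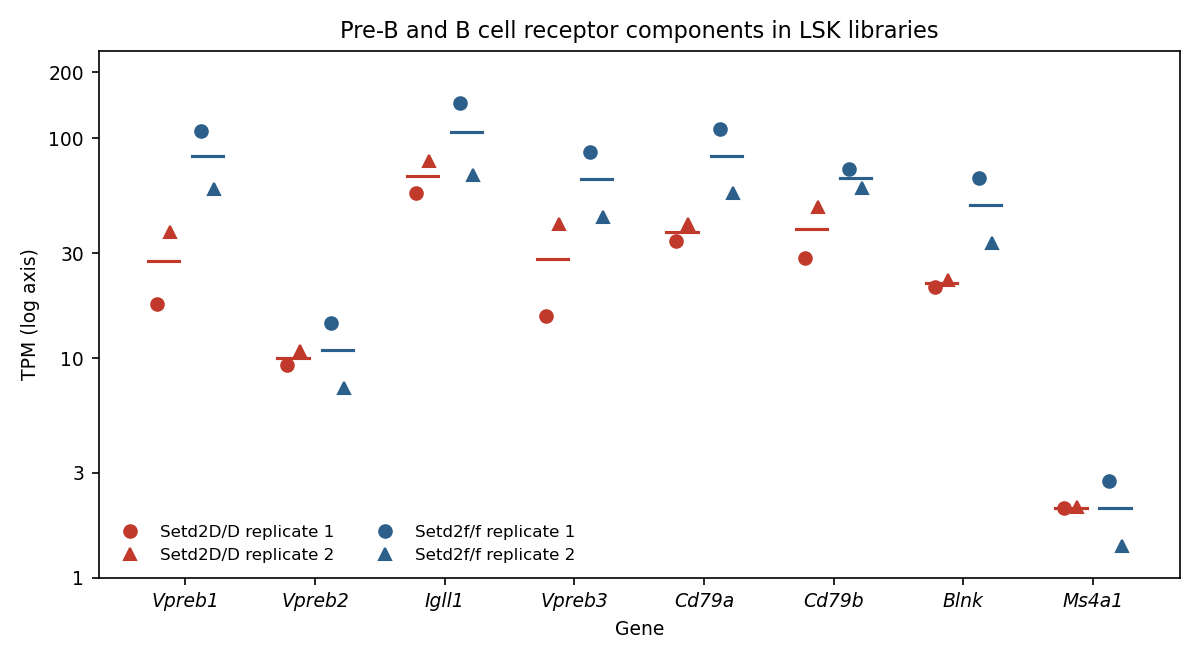
TPM (log axis) of the 8 receptor components in each library, with Setd2D/D in red left of Setd2f/f in blue; circles are replicate 1, triangles replicate 2 and bars group means. Setd2f/f replicate 1 is the highest library for every gene, and Setd2D/D lies wholly below Setd2f/f for Vpreb1, Vpreb3, Cd79a, Cd79b and Blnk.

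Of the surrogate light chain genes, Vpreb1 differed most. It was at 17.6 and 37.4 TPM in Setd2D/D, against 107 and 58.8 TPM in Setd2f/f. The groups did not overlap, and within each genotype the replicates lay far apart. Vpreb1 averaged 27.5 ± 14.0 TPM in Setd2D/D and 83.1 ± 34.5 TPM in Setd2f/f (SD, n = 2 each), a ratio of means of 0.331. The limma log2 change was -1.59 (SE 0.46, limma adjusted p = 0.393), and -1.54 (FDR 7.28e-09) in the authors' deposited table.

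Vpreb2, its near copy, was at 9.31 and 10.8 TPM in Setd2D/D and at 14.4 and 7.30 TPM in Setd2f/f. Both Setd2D/D values lay between the Setd2f/f values. Its limma log2 change was -0.04 (SE 0.37), and it lay between 0.013 and 0.028 once the libraries were rescaled, so that no direction can be given (limma adjusted p = 0.983). The authors' deposited table puts it at -0.05 (log2, FDR 0.995) with a mean abundance of 1.32 log2 CPM, against 4.65 for Vpreb1.

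By TPM, Vpreb2 therefore made up a larger share of the VpreB transcripts in Setd2D/D. The share was 34.6% and 22.3% in the Setd2D/D libraries, against 11.8% and 11.1% in the Setd2f/f libraries. The Setd2f/f libraries lay within 1 percentage point of each other although both genes were much higher in Setd2f/f replicate 1, and the Setd2D/D libraries lay well above them and apart. With 2 libraries against 2, the exact permutation test cannot give less than p = 0.333, which it gave here. In the authors' deposited table the mean abundance was 2.50 CPM for Vpreb2 and 25.1 CPM for Vpreb1. That puts Vpreb2 lower beside Vpreb1 than the TPM of any library does, so the size of the share depends on the measure. RSEM, a tool that shares ambiguous reads among transcripts, is named in the submitters' processing notes, and how far the split of reads between the copies moves with the result was not tested. Summed as 1 feature, the VpreB pair was at 26.9 and 48.2 TPM in Setd2D/D and 121.8 and 66.1 TPM in Setd2f/f. Its limma log2 change was -1.29 (SE 0.40, limma adjusted p = 0.407), and -0.86 when Setd2f/f replicate 1 was left out. TPM is corrected for length gene by gene, so this sum can also move with the split of reads, which was not tested. Exons annotated to Vpreb1 also share 108 bases with the gene Top3b on the opposite strand, and whether the libraries kept strand is not given.

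Igll1, whose product completes the surrogate light chain, was the most abundant of the 8 genes in both genotypes. Its level was 56.5 and 78.7 TPM in Setd2D/D and 144.9 and 67.7 TPM in Setd2f/f. Setd2D/D replicate 2 lay above Setd2f/f replicate 2, so the groups overlapped. The mean was 67.6 ± 15.7 TPM in Setd2D/D and 106 ± 54.6 TPM in Setd2f/f (SD, n = 2 each), with a limma log2 change of -0.57 (SE 0.40, limma adjusted p = 0.625). The authors' deposited table calls Igll1 lower, with a log2 change of -0.73 (FDR 0.000402). The limma log2 change was -0.02 when Setd2f/f replicate 1 was left out, -1.11 when Setd2f/f replicate 2 was and -0.33 when Setd2D/D replicate 1 was. Per VpreB transcript (Vpreb1 plus Vpreb2) there were 2.10 and 1.63 Igll1 transcripts in the Setd2D/D libraries, against 1.19 and 1.02 in the Setd2f/f libraries, groups that did not overlap (exact permutation p = 0.333, the smallest possible).

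**Figure D2:**
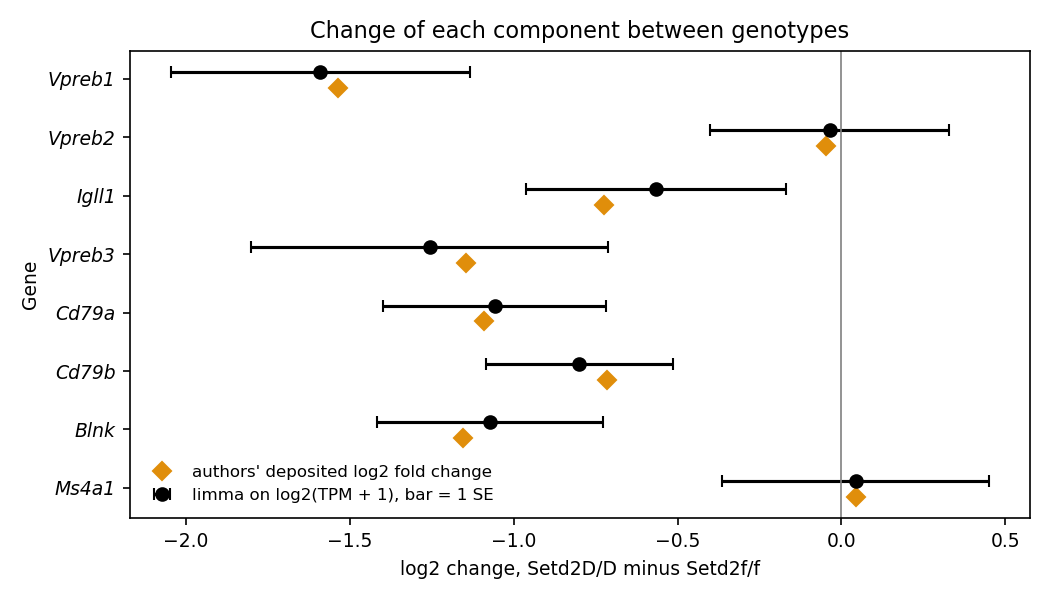
Log2 change (Setd2D/D minus Setd2f/f) of each component, as the limma estimate on log2(TPM + 1) with a bar of 1 SE (black) and as the log2 fold change of the authors' deposited table (orange diamonds). Vpreb1 lies lowest at -1.59, and Vpreb2 and Ms4a1 lie at 0 within their errors; after rescaling of the libraries Vpreb2 sits just above 0.

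Vpreb3 (ENSMUSG00000000903, chromosome 10, 75943057 to 75949657) encodes a VpreB-like protein of the endoplasmic reticulum that binds heavy chains and is no part of the surface receptor. It was at 15.6 and 40.6 TPM in Setd2D/D and at 86.5 and 44.0 TPM in Setd2f/f. Setd2D/D replicate 2 came within 4 TPM of Setd2f/f replicate 2, and the lowest and highest libraries were far from both. The limma log2 change was -1.26 with the widest SE of the 8 genes, 0.55 (limma adjusted p = 0.479), and the authors' deposited table gives -1.15 (FDR 0.00398). The limma value was -0.59 when Setd2D/D replicate 1 was left out, -1.92 when Setd2D/D replicate 2 was and -0.78 when Setd2f/f replicate 1 was.

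The signalling chains had lower levels too. Cd79a (ENSMUSG00000003379, chromosome 7, 24897381 to 24902197) was at 34.1 and 40.8 TPM in Setd2D/D and at 110.1 and 56.3 TPM in Setd2f/f. The Setd2D/D libraries were close to each other, and the Setd2f/f libraries differed by a factor of 1.96. Its limma log2 change was -1.06 (SE 0.34, limma adjusted p = 0.412), and the authors' deposited table gives -1.09 (FDR 2.6e-10). Leaving out Setd2f/f replicate 1 gave a limma log2 change of -0.58.

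Cd79b (ENSMUSG00000040592, chromosome 11, 106311341 to 106314762) was at 28.5 and 48.4 TPM in Setd2D/D and at 72.3 and 59.3 TPM in Setd2f/f. Here the Setd2f/f libraries were the closer pair, differing by a factor of 1.22, and the Setd2D/D libraries differed by 1.70. The limma log2 change was -0.80 (SE 0.29, limma adjusted p = 0.431), against -0.71 (FDR 0.00433) in the authors' deposited table, and the limma value was -0.43 when Setd2D/D replicate 1 was left out. The products of Cd79a and Cd79b pair with each other, and the ratio of their transcripts was 1.20 and 0.842 in Setd2D/D and 1.52 and 0.949 in Setd2f/f, which overlapped (exact permutation p = 0.667).

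Blnk (ENSMUSG00000061132, chromosome 19, 40928927 to 40994535) was at 21.1 and 22.6 TPM in Setd2D/D and at 66.2 and 33.3 TPM in Setd2f/f. The Setd2D/D libraries were almost equal, and both lay below the lower Setd2f/f library. Its limma log2 change was -1.07 (SE 0.34, limma adjusted p = 0.412), and the authors' deposited table gives -1.16 (FDR 6.8e-09). With Setd2f/f replicate 1 left out the limma log2 change was -0.59. Blnk and Cd79a kept nearly the same proportion in every library, with 0.618 and 0.554 Blnk transcripts per Cd79a transcript in Setd2D/D and 0.601 and 0.593 in Setd2f/f (exact permutation p = 1), although both genes varied widely in level over the same libraries. Other ratios with Cd79a moved more. Per Cd79a transcript there were 0.456 and 0.996 Vpreb3 transcripts in Setd2D/D and 0.786 and 0.781 in Setd2f/f. For Igll1 the ratio was 1.66 and 1.93 in Setd2D/D and 1.32 and 1.20 in Setd2f/f. How many other gene pairs keep so steady a proportion was not tested. Of the 50-base windows of the Cd79a transcript, 8.31% also occur in the gene model Gm32220.

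Ms4a1 (ENSMUSG00000024673, chromosome 19, 11249675 to 11266241) encodes CD20, a surface protein of later B cells. It was at 2.07 and 2.10 TPM in Setd2D/D and at 2.75 and 1.39 TPM in Setd2f/f. Both Setd2D/D values lay between the Setd2f/f values, with a limma log2 change of 0.04 (SE 0.41, limma adjusted p = 0.982) and a log2 change of 0.04 in the authors' deposited table (FDR 0.994). For each 100 Cd79a transcripts there were 6.07 and 5.15 Ms4a1 transcripts in Setd2D/D and 2.50 and 2.47 in Setd2f/f. The groups did not overlap (exact permutation p = 0.333, the smallest possible). This ratio rises where Cd79a is lower, as it was in Setd2D/D, while the mean level of Ms4a1 was nearly the same in both genotypes. At 1.81 log2 CPM in the authors' deposited table, Ms4a1 is scarce, and its sign depended on which library was left out (-0.28 to 0.37).

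**Figure D3:**
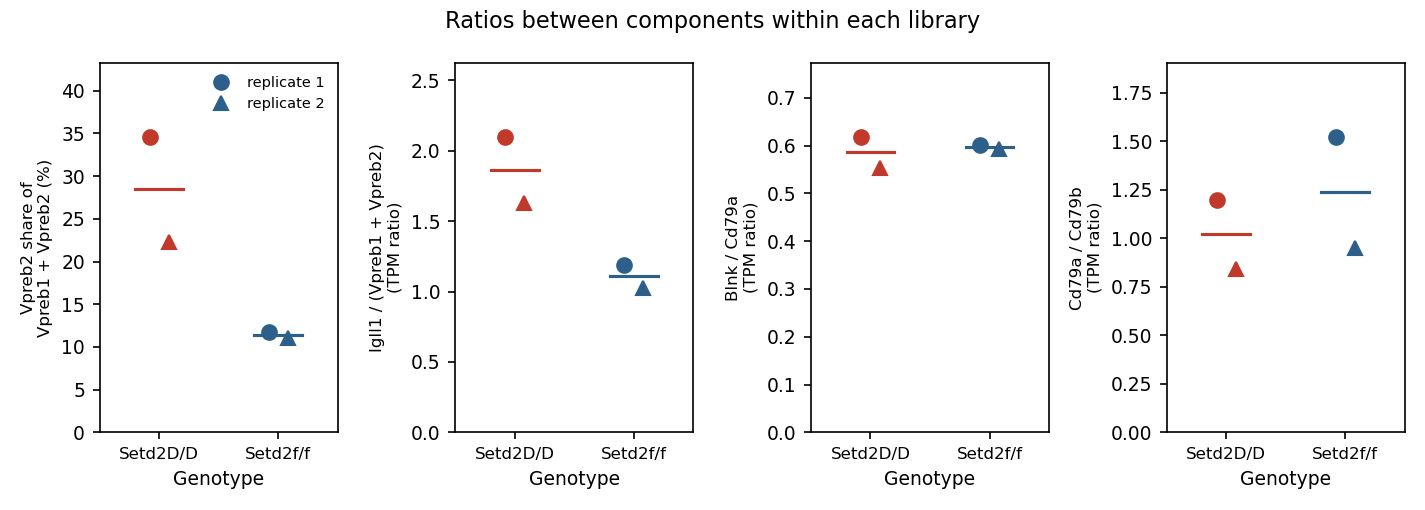
Proportions between components within each library, Setd2D/D (red) left of Setd2f/f (blue), circles for replicate 1, triangles for replicate 2 and bars for means; the axes start at 0. The Vpreb2 share and the Igll1 to VpreB ratio are higher in both Setd2D/D libraries, while Blnk per Cd79a stays between 0.554 and 0.618 in all 4 libraries.

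In order of mean level, Setd2D/D cells had Igll1 at 67.6 TPM, Cd79b at 38.5, Cd79a at 37.4, Vpreb3 at 28.1, Vpreb1 at 27.5, Blnk at 21.8, Vpreb2 at 10.0 and Ms4a1 at 2.09. In Setd2f/f cells the order was Igll1 at 106 TPM, Cd79a at 83.2, Vpreb1 at 83.1, Cd79b at 65.8, Vpreb3 at 65.2, Blnk at 49.7, Vpreb2 at 10.8 and Ms4a1 at 2.07. From Igll1 down to Blnk, neighbours in the Setd2f/f order overlapped in their libraries. In Setd2D/D, Cd79b, Cd79a, Vpreb3 and Vpreb1 overlapped, as did Blnk with Vpreb1, whereas both Igll1 values lay above every value of the others. Within a library, Igll1 was the highest of the receptor genes in both genotypes. Vpreb2 and Ms4a1 stood below the other 6 genes in every library.

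The libraries of 1 genotype differed from each other in a shared way. All 8 genes were higher in Setd2f/f replicate 1 than in replicate 2, as were 55.7% of the tested genes, 7 of them by at least 1.5 times (all but Cd79b), a gap that 11.6% of the tested genes showed in that direction. All 8 were also higher in Setd2D/D replicate 2 than in replicate 1, as were 49.3% of the tested genes, by factors from 1.01 for Ms4a1 to 2.61 for Vpreb3. Summed over the 8 genes the level was 185 and 281 TPM in Setd2D/D and 605 and 328 TPM in Setd2f/f, so that Setd2D/D replicate 2 and Setd2f/f replicate 2 were the closest libraries of the 2 genotypes. The median limma log2 change of the 8 genes was -0.51 when Setd2D/D replicate 1 was left out and -1.15 when replicate 2 of that genotype was, and it was -0.58 when Setd2f/f replicate 1 was left out and -1.32 when its partner was.

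Other genes were ranked by how closely their profile over the 4 libraries followed that of the receptor components. The profile was the mean over the 8 genes of log2(TPM + 1), centred on the 4 libraries, and likeness was the root mean square difference from it, over 9943 other genes with a mean of at least 5 TPM. Closest were Lztfl1 at 0.053, Ebf1 at 0.068, Ephb6 at 0.076, Zfp846 at 0.089, Wrap73 at 0.094 and Rbbp9 at 0.10 log2 units, where the median gene was at 0.52. Ebf1, which commits progenitors to the B lineage, was at 4.20 and 7.14 TPM in Setd2D/D and at 14.7 and 8.20 TPM in Setd2f/f (limma log2 change -0.88, SE 0.40, adjusted p = 0.487, and -0.63 (FDR 0.110) in the authors' deposited table). Outside the naming rule, and chosen after their values were seen, Pou2af1 ranked 7 at 0.11, Mzb1 14 at 0.12 and Ighd 30 at 0.15. Other B lineage genes, chosen in the same way, ranked far down. They were Jchain at rank 1730, Tcf3 at 3687, Sdc1 at 3920, Tnfrsf13c at 6266, Bach2 at 7303, Lef1 at 7602 and Pax5 at 8105 (0.65). With 4 libraries, in which a single high library weighs heavily, these ranks describe the profiles only.

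**Figure D4:**
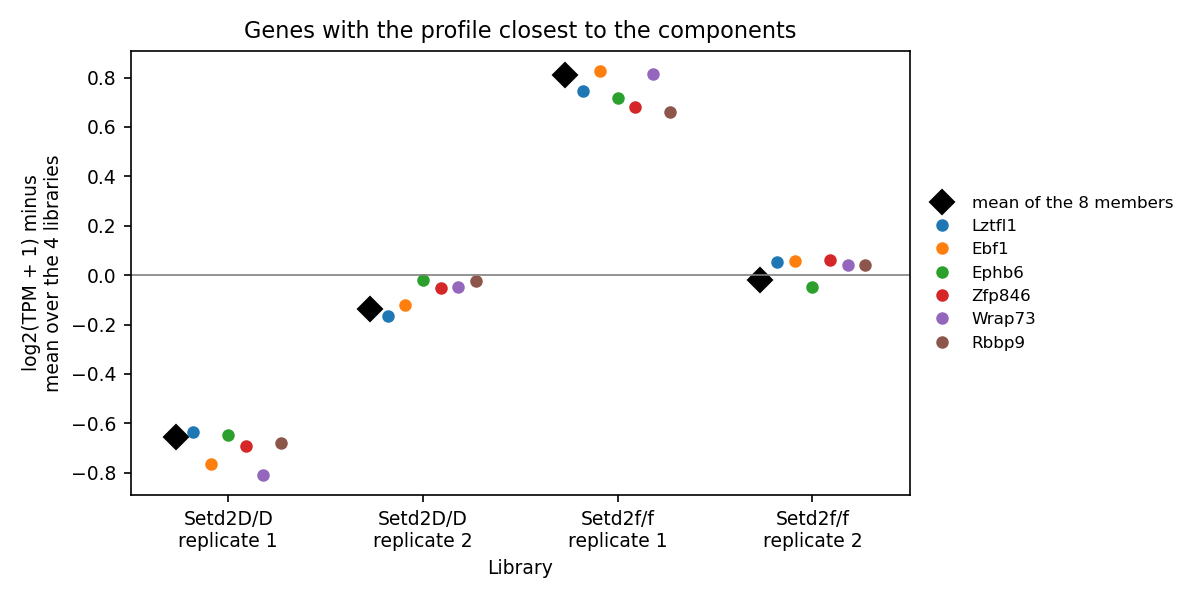
Log2(TPM + 1) centred on the 4 libraries for the mean of the 8 components (black diamonds) and the 6 closest other genes (coloured circles), Setd2D/D libraries left of Setd2f/f libraries. All 7 profiles are lowest in Setd2D/D replicate 1, highest in Setd2f/f replicate 1 and near 0 in the replicates numbered 2.

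Related gene lists were read in the same fit, and in each of 10 lists 0 genes passed limma at an adjusted p of 0.05. Of all tested genes only 0.0678% passed. For the list counts below, the authors' deposited table has 1.64% of its genes lower and 1.51% higher at an FDR under 0.05. Of 16 transcription factors of the B lineage, the authors' deposited table has 3 lower (Pax5, Pou2af1 and Lef1), 0 higher and 13 that did not pass, and the list's median limma log2 change was -0.30. Pou2af1 was at 11.6 and 14.2 TPM in Setd2D/D and 29.95 and 15.2 TPM in Setd2f/f (limma log2 change -0.69), and Lef1 at 2.10 and 12.6 TPM in Setd2D/D and 15.2 and 4.98 TPM in Setd2f/f (-0.60). Mef2c, a lymphoid and myeloid factor, was at 91.3 and 78.9 TPM in Setd2D/D and 106 and 115 TPM in Setd2f/f (limma log2 change -0.38). Tcf3, the gene of the E2A proteins, was at 119 and 111 TPM in Setd2D/D and 131.5 and 136 TPM in Setd2f/f (-0.22). Id2, which encodes an inhibitor of E2A proteins, was at 20.0 and 15.9 TPM in Setd2D/D and 13.8 and 10.6 TPM in Setd2f/f (0.52). The deposited tables part on Pax5, the factor that maintains B cell identity. It was at 18.8 and 14.8 TPM in Setd2D/D and at 17.4 and 9.33 TPM in Setd2f/f, a limma log2 change of 0.36, where the authors' deposited table gives -0.62 (FDR 0.00580). Of the 706 genes past that FDR that limma tested, 3 had opposite signs in this way.

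Of 22 genes of proximal B cell receptor signalling, 2 were lower, Dapp1 among them, and 0 higher in the authors' deposited table, and the median limma log2 change was -0.12. The kinases on either side of Blnk stayed close between genotypes, with Syk at 99.7 and 101 TPM in Setd2D/D and 106 and 93.7 TPM in Setd2f/f, and Btk at 109 and 101.5 TPM in Setd2D/D and 106 and 114 TPM in Setd2f/f. Plcg2, the phospholipase that Blnk brings to the receptor, was at 132 and 122 TPM in Setd2D/D and 138 and 136 TPM in Setd2f/f. Dapp1, an adaptor downstream of PI3 kinase, was at 206 and 223 TPM in Setd2D/D and 381 and 310.1 TPM in Setd2f/f (limma log2 change -0.68, adjusted p = 0.281). Vav1 was at 103 and 104 TPM in Setd2D/D and 130.1 and 120.2 TPM in Setd2f/f. Bank1, a B cell scaffold, was at 8.84 and 5.53 TPM in Setd2D/D and 3.25 and 1.94 TPM in Setd2f/f (limma log2 change 1.18, adjusted p = 0.416). Syk, Btk and Plcg2 were chosen for their place beside Blnk.

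Among 10 inhibitory receptors and phosphatases of the pathway the authors' deposited table has 1 lower and 1 higher. Fcgr2b, the inhibitory Fc receptor that myeloid cells share, was higher, at 35.0 and 47.2 TPM in Setd2D/D and 21.1 and 22.9 TPM in Setd2f/f (limma log2 change 0.86, adjusted p = 0.329). Cd72 was lower, at 46.2 and 29.6 TPM in Setd2D/D and 65.5 and 60.2 TPM in Setd2f/f (limma log2 change -0.75, adjusted p = 0.412). Cd22, an inhibitory lectin of B cells, was at 1.78 and 9.06 TPM in Setd2D/D and 1.40 and 1.37 TPM in Setd2f/f, and Fcrl1 at 2.31 and 3.49 TPM in Setd2D/D and 5.53 and 5.61 TPM in Setd2f/f.

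Of 12 early lymphoid progenitor genes, 3 were lower and 0 higher in the authors' deposited table (Dntt, Lax1 and Cnn3), with a median limma log2 change of -0.39. Dntt, which adds bases at recombined junctions, was at 427 and 408 TPM in Setd2D/D and 668 and 594 TPM in Setd2f/f. Notch1 was at 30.4 and 38.5 TPM in Setd2D/D and 63.8 and 43.3 TPM in Setd2f/f, Cnn3 at 35.6 and 48.1 TPM in Setd2D/D and 66.4 and 57.8 TPM in Setd2f/f, and the chemokine receptor gene Ccr9 at 2.02 and 1.46 TPM in Setd2D/D and 7.23 and 3.31 TPM in Setd2f/f. The recombinase genes, which act on the loci of the receptor chains and were chosen for that role, overlapped between genotypes: Rag1 was at 12.9 and 13.5 TPM in Setd2D/D and 23.4 and 9.73 TPM in Setd2f/f, and Rag2 at 19.5 and 18.3 TPM in Setd2D/D and 27.3 and 18.1 TPM in Setd2f/f.

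**Figure D5:**
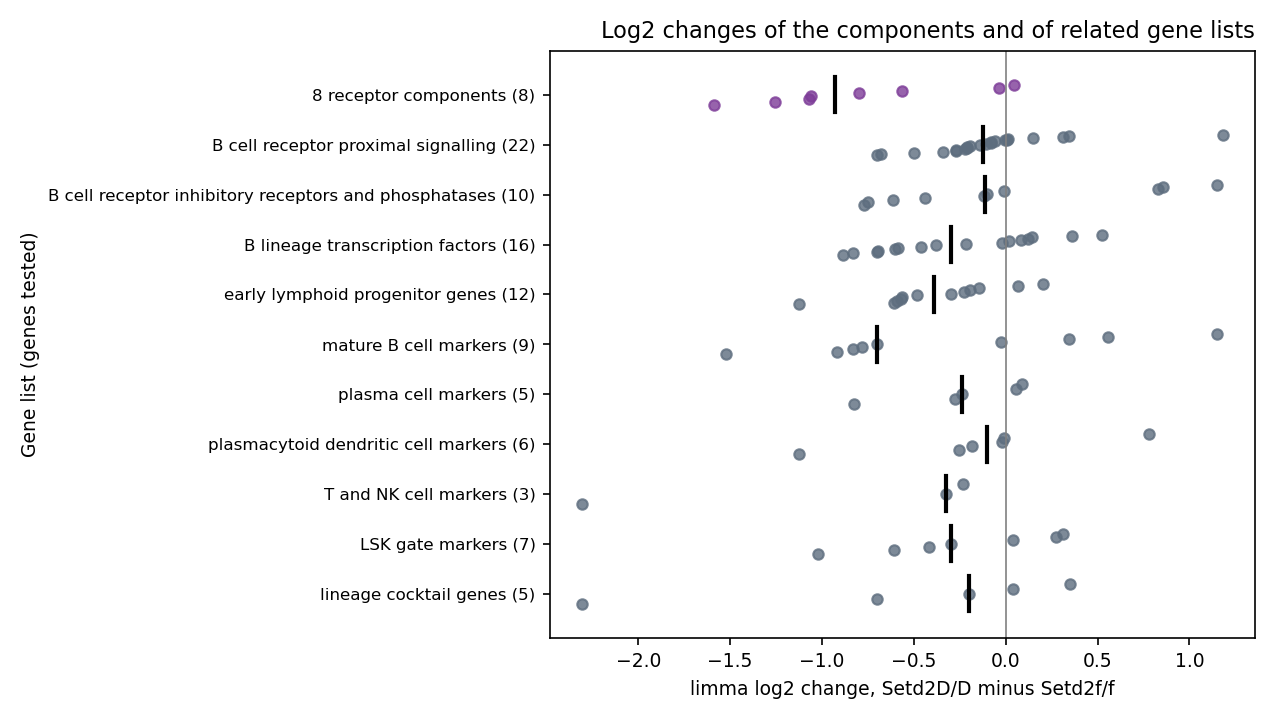
Limma log2 change (Setd2D/D minus Setd2f/f) of each tested gene, for the 8 receptor components (purple) and 10 related lists (grey), with the number tested in brackets and a black line at each median. The median of the components is -0.93, and the list medians lie between -0.70 for mature B cell markers and -0.10 for plasmacytoid dendritic cell markers.

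Markers of other cells were read beside these results, and their part in the result was not tested. Of 13 mature B cell markers 9 were tested, with a median limma log2 change of -0.70, and the authors' deposited table has 3 lower, Cd37 and Tnfrsf13c among them, and 0 higher. The list summed to 227 and 249 TPM in Setd2D/D and 409 and 320 TPM in Setd2f/f. Most of that was the tetraspanin gene Cd37, also expressed outside B cells, at 137 and 129 TPM in Setd2D/D and 254 and 206 TPM in Setd2f/f. Tnfrsf13c, the BAFF receptor gene, was at 2.10 and 7.16 TPM in Setd2D/D and 13.5 and 13.4 TPM in Setd2f/f, and Ighd at 4.5 and 6.49 TPM in Setd2D/D and 12.3 and 8.87 TPM in Setd2f/f. Fcer2a, Fcmr and Cxcr5, which mark mature B cells, did not exceed 0.98 TPM in any library. Of the 9 tested, 3 had limma log2 changes above 0. These were Cd22, whose levels are given above, Cr2 at 0.44 and 3.35 TPM in Setd2D/D and 0.85 and 1.10 TPM in Setd2f/f, and Cd40 at 1.14 and 2.44 TPM in Setd2D/D and 0.57 and 1.16 TPM in Setd2f/f, each highest in Setd2D/D replicate 2. Cd83, which was too low to be tested, was at 1.82 and 0.34 TPM in Setd2D/D and 0.40 and 0.26 TPM in Setd2f/f.

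The 7 plasma cell markers summed to 320 and 318 TPM in Setd2D/D and 453 and 332 TPM in Setd2f/f, with 0 past the FDR in the authors' deposited table. Most of each sum was Jchain and Xbp1. Jchain was at 194.5 and 157 TPM in Setd2D/D and 256 and 175 TPM in Setd2f/f. Xbp1 was at 87.1 and 102 TPM in Setd2D/D and 122 and 101 TPM in Setd2f/f. Mzb1 was at 15.96 and 28.6 TPM in Setd2D/D and 48.6 and 30.8 TPM in Setd2f/f. Derl3 was at 3.37 and 3.12 TPM in Setd2D/D and 2.78 and 3.22 TPM in Setd2f/f. Sdc1 was at 18.6 and 25.4 TPM in Setd2D/D and 22.3 and 19.5 TPM in Setd2f/f. Prdm1 and Tnfrsf17 were too low to be tested. Prdm1 was at 0.23 and 1.73 TPM in Setd2D/D and 0.53 and 0.98 TPM in Setd2f/f. Tnfrsf17 was at 0 and 0.94 TPM in Setd2D/D and 1.11 and 0.72 TPM in Setd2f/f. The 7 plasmacytoid dendritic cell markers summed to 320 and 357 TPM in Setd2D/D and 312 and 294 TPM in Setd2f/f, with Ly6c2 higher in the authors' deposited table and Klk1 at 0 in all libraries. Without Ly6c2 the sums were 188 and 177 TPM in Setd2D/D and 222 and 204 TPM in Setd2f/f, which turns the direction round. Siglech was at 7.30 and 5.96 TPM in Setd2D/D and 7.58 and 5.82 TPM in Setd2f/f. Pacsin1 was at 2.41 and 0.40 TPM in Setd2D/D and 1.39 and 1.05 TPM in Setd2f/f. The genotypes overlapped for Siglech and for Pacsin1. Ly6c2 was at 133 and 181 TPM in Setd2D/D and 89.6 and 90.1 TPM in Setd2f/f, Bst2 at 106 and 108 TPM in Setd2D/D and 121 and 122 TPM in Setd2f/f, and Tcf4 at 70.0 and 61.2 TPM in Setd2D/D and 84.9 and 72.1 TPM in Setd2f/f.

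The 11 T and NK cell markers summed to 80.7 and 127 TPM in Setd2D/D and 133 and 134 TPM in Setd2f/f, most of it Nkg7, at 78.7 and 116 TPM in Setd2D/D and 114 and 126 TPM in Setd2f/f. Cd3e did not exceed 0.57 TPM and Cd3d did not exceed 0.45 TPM in any library. Cd3g was at 0 and 2.35 TPM in Setd2D/D and 0.62 and 0.52 TPM in Setd2f/f, and Trac at 0 and 1.81 TPM in Setd2D/D and 0.54 and 0 TPM in Setd2f/f. Cd5 and Cd2 were likewise highest in Setd2D/D replicate 2, at 1.5 and 1.45 TPM. Cd4 was listed at 0 and 2.29 TPM in Setd2D/D and at 14.6 and 4.15 TPM in Setd2f/f, and the authors' deposited table has it lower (log2 change -2.35, FDR 0.00602). Of the 10 genes whose products are common targets of lineage cocktails, 9 were listed, and they summed to 174 and 195 TPM in Setd2D/D and 235 and 174.5 TPM in Setd2f/f. Cd4 was among the 2 genes of this list that the authors' deposited table has lower. Itgam was at 17.7 and 20.3 TPM in Setd2D/D and 22.9 and 21.1 TPM in Setd2f/f, and Ly6g at 0 and 2.86 TPM in Setd2D/D and 0.18 and 1.01 TPM in Setd2f/f. The 7 gate markers summed to 1416 and 1355 TPM in Setd2D/D and 1786 and 1715 TPM in Setd2f/f. Of these 7, Kit and Ly6a are the genes that define the sort, and Kit was higher in Setd2D/D, as given above. Cd34 and Ly6a were lower in the authors' deposited table, with Cd34 at 520.4 and 476 TPM in Setd2D/D and 773 and 747 TPM in Setd2f/f, and Cd48 was at 132 and 138 TPM in Setd2D/D and 175 and 187 TPM in Setd2f/f.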

How the data were processed

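The authors deposited TPM values for 46517 genes in 4 libraries and, for 23955 genes, their own comparison: the fold (a linear ratio) and its log2, mean abundance as log2 CPM, an F score, and an FDR, which is an adjusted p-value. Cutadapt, RSEM, edgeR and mm10 are named per the submitters' processing notes, which give neither role nor version here. Fields displaced by commas inside names were put back in 5 and 2 rows of these tables. Genes with at least 1 TPM in at least 2 libraries (14755) were fitted as log2(TPM + 1) with limma 3.58.1 in R 4.3.3, with 1 term for genotype, trended moderation, 2-sided tests and Benjamini-Hochberg adjustment over all of them. The fit was tested on simulated data, but how often it recovered a true change is not reported here. All 8 receptor genes passed the filter. TPM keeps no read number, so no counting interval is given, and fold changes on the log2(TPM + 1) scale understate the change of scarce genes.

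The receptor genes, the lists and the tests were chosen with earlier results of these data known. Named are the 8 genes, Setd2, up to 4 genes per list with the smallest limma p and a mean of at least 1 TPM, and the 6 genes of closest profile, passing over unnamed models and pseudogenes; genes named besides were chosen after their values were seen or for their role. Coordinates are from GENCODE M21 on GRCm38 (mm10), with 46005 identifiers matched, and promoters from RefSeq. The alternatives were other pseudocounts, filters, scalings and moderation, a replicate block and leaving out each library. A gene on the lists is counted in their totals and is not reported here.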

Additional observations from a re-analysis of the deposited data

How the results depend on the processing

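Of the 8 receptor genes, 0 passed limma at an adjusted p of 0.05 under any of the 14 alternatives, and neither did any gene of the 10 lists. At an unadjusted p under 0.05 there were 4 of the 8 in the fit as reported (beside 1647 of all genes), 3 with no filter (2035) or after any of the 3 rescalings (1557 to 1573) and 1 with moderation without the trend (1611). With Setd2D/D replicate 1 left out there were 0 (1632) and with replicate 2 of that genotype 3 (2928); with Setd2f/f replicate 1 left out there were 0 (554) and with its partner 4 (676). The count over all genes was 10, against 3 with a pseudocount of 0.1, 19 with moderation without the trend, and 0 with no filter (2035 genes at an unadjusted p under 0.05 by limma), with the replicate block (1508) and without any 1 library (554 to 2928). When 1 library is left out, the lone library of its genotype is assumed to vary like the other pair. Cd79a, Cd79b, Vpreb1, Vpreb3, Igll1, Blnk and the summed VpreB pair kept a log2 change below 0 under all 14 alternatives. The filters, the changes of moderation and the replicate block leave a gene's log2 change the same by construction, so they do not test its sign. The size moved with the library left out. It ranged from -1.54 to -0.58 for Cd79a, from -1.17 to -0.43 for Cd79b and from -2.11 to -1.07 for Vpreb1. For Vpreb3 it ranged from -1.92 to -0.59 and for Igll1 from -1.11 to -0.02. For Blnk it ranged from -1.56 to -0.59 and for the pair from -1.73 to -0.86. Vpreb2 changed sign, to 0.013 with trimmed mean of M values scaling, 0.019 with median-of-ratios scaling and 0.028 with quantile scaling, and ranged from -0.48 to 0.41 over the libraries left out; Ms4a1 ranged from -0.28 to 0.37. The cause was not tested. Same-numbered libraries of the genotypes deviated together only weakly (r = 0.04 across 14755 genes, which are not independent replicates), so they share a number and nothing more is known. With the replicate block 0 of the 8 genes passed. With 2 libraries per genotype the SEs also rest on moderation across genes: without the trend that of Ms4a1 was 0.28 in place of 0.41, and that of Cd79a 0.39 in place of 0.34.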
